A study of Homo sapiens with 6 samples.

Results

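The genes described here are 10 targets of the p53 transcription factor family that act in growth arrest, cell death and the control of p53 itself, and they were measured in human keratinocytes with and without a hairpin against TP63. They are CDKN1A, SFN, GADD45A, GADD45B, MDM2, TP53INP1, BBC3, BAX, TP53I3 and PERP. The set is defined by gene name and was chosen with earlier results of these data known. All 10 were among the 18404 genes tested, each through 1 probe set, the group of array probes that reports a gene. HaCaT, the cell line used, is a keratinocyte line that became immortal in culture. In the shControl group 3 samples received a control vector by lentivirus, and in the shTP63 group 3 samples received a lentiviral short hairpin RNA against TP63. RNA was collected 72 hours after the knockdown in both groups. How many hairpin sequences were used is not given in the sources used here, and all samples are of 1 cell line. The labels do not say whether the 3 samples of a group were separate cultures, so a p-value here covers only the variation among these samples, and that variation could be technical. TP63 was not analysed here, and each direction rests on the sample labels without a check of the knockdown.

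The proteins p53, p63 and p73 bind the same kind of DNA element, a pair of similar decamers, and so share many target genes. After DNA damage p53 activates genes that stop the cell cycle, repair DNA or start cell death, and it activates MDM2, whose product marks p53 for destruction and so closes a feedback loop. In the basal layer of the epidermis p63 is the abundant member of the family, and it can occupy the same elements as an activator or as a repressor.

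Promoter sequences from RefSeq (GRCh38.p14) were matched by symbol for 8 of the 10 genes, and the 250 bases upstream of each start were searched for a pair of p53 consensus decamers with 0 to 13 bases between them. The decamer equals its own reverse complement, so both strands give the same matches. MDM2 has an outer and an inner promoter, with starts 845 bases apart, and the inner one is the textbook p53-responsive promoter. Its upstream stretch is shown first because MDM2 was among the genes that fell. The best pairs upstream of SFN and TP53I3, which also fell, of GADD45B, which rose, and of CDKN1A, which did not pass the test, are shown for comparison. Other pairs with as few mismatches were found for SFN, which had 4 such pairs, and for CDKN1A, which had 3, and the one farthest upstream is shown. Capitals mark the decamers.
MDM2 inner promoter, chr12:68808911-68808992, plus strand: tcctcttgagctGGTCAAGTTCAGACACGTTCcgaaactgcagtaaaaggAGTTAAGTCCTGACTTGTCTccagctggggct
MDM2 outer promoter, chr12:68807940-68807982, plus strand: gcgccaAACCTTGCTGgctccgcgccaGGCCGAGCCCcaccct
SFN, chr1:26863047-26863080, plus strand: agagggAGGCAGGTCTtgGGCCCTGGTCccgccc
TP53I3, chr2:24085041-24085081, minus strand: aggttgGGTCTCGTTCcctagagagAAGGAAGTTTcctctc
GADD45B, chr19:2476009-2476045, plus strand: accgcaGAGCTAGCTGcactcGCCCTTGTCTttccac
CDKN1A, chr6:36678531-36678566, plus strand: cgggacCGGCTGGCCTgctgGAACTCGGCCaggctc

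The inner MDM2 promoter held 2 unspaced pairs, which began 94 and 56 bases upstream of the start with 2 and 3 mismatches to the consensus. A pair with at most 2 mismatches and 0 to 13 bases between its decamers was found in 6.64% of 35116 RefSeq promoter windows of the same length. The share of windows with such an unspaced pair, or with 2 pairs, was not measured. The best pairs upstream of TP53I3, GADD45B and BBC3 had 3 mismatches, which 34.1% of windows reach, and those of CDKN1A, SFN, BAX, PERP and the outer MDM2 promoter had 4, which 79.3% reach. Well-known p53 elements of some of these genes, such as those far upstream of CDKN1A, lie outside such short windows. These matches are letters in a window and were not measured as bound sites.

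Between the groups TP53INP1, SFN, MDM2 and TP53I3 fell and GADD45B rose, while CDKN1A, GADD45A, BBC3, BAX and PERP did not pass the test. In limma's moderated test 4 of the 10 genes fell and 1 rose at an adjusted p under 0.05, where 25.1% of all 18404 genes fell and 16.4% rose. That balance of 4619 falls and 3015 rises moved with the scaling, to 7932 and 1782 with arrays centred at their medians and to 3663 and 3704 with cyclic loess. A call in either direction was made for 5 of the 10 genes and for 41.5% of all genes, so the share of called genes was near that of the whole array. The values of the groups did not overlap for 9 of the 10 genes, 6 lower and 3 higher in shTP63, against 51.4% of all genes, 30.4% lower and 20.9% higher. Their median difference, shTP63 minus shControl on the log2 scale, was -0.091, beside -0.013 for all genes, and it was -0.0044 with cyclic loess, -0.0031 with quantile normalization over probe sets with 1 gene and -0.20 on arrays centred at their medians. The 10 genes spanned 0.89 on that scale and none changed 2-fold. Every one lay above the level of background, taken as the 95th percentile of 340 olfactory receptor genes (6.76, log2 intensity), with group means from 8.24 to 12.76.

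**Figure D1:**
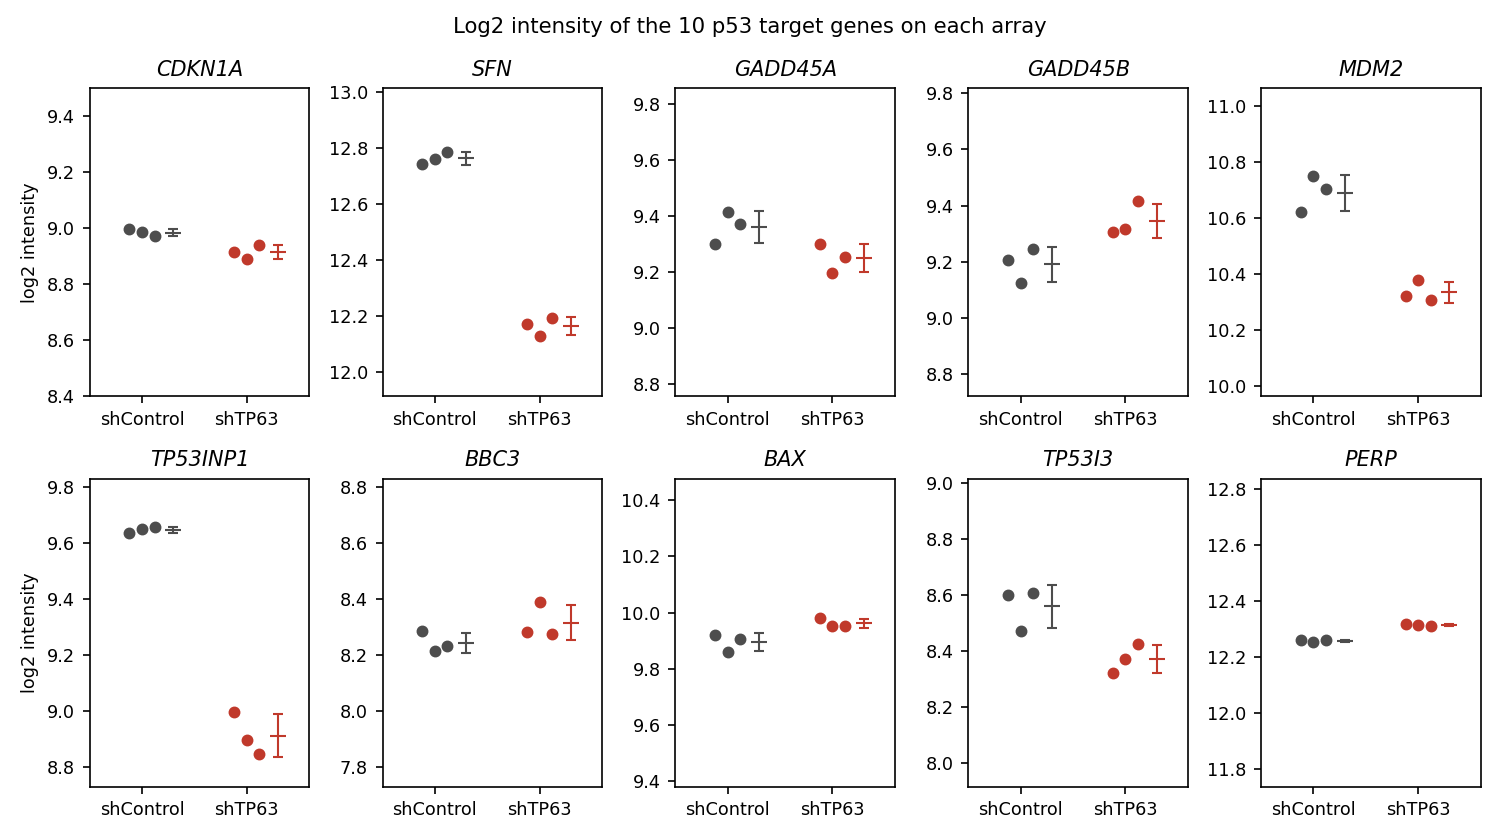
Log2 intensity (y axis, 1.1 log2 units tall in each panel) of each gene on the 3 shControl (grey) and 3 shTP63 (red) arrays, with points for arrays and bars for the mean ± SD. TP53INP1, SFN and MDM2 show the widest gaps between the groups, and only for BBC3 do the groups overlap.

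Among the arrest genes, stratifin had the clearest change. SFN encodes stratifin, an epithelial protein that holds mitotic cyclin and kinase in the cytoplasm and so delays entry into mitosis. Its log2 intensities were 12.74, 12.76 and 12.79 in shControl and 12.17, 12.13 and 12.19 in shTP63. All 3 shTP63 arrays lay well under all 3 shControl arrays, and arrays of a group lay close together. The gene fell by 0.60 (SE 0.042, limma adjusted p = 1.19e-05), or 1.51-fold, and 381 of the 18404 genes fell further.

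CDKN1A encodes p21, the inhibitor of cyclin-dependent kinases through which p53 arrests the cycle. It read 9.00, 8.98 and 8.97 in shControl and 8.91, 8.89 and 8.94 in shTP63. The shTP63 arrays were all lower, but the gap was small. Its difference of -0.070 (SE 0.041, 95% interval -0.16 to 0.02) did not pass (limma adjusted p = 0.211). On arrays scaled by cyclic loess the difference became 0.0074, and on arrays centred at their medians it became -0.18 and passed (adjusted p = 0.00716), so the direction of CDKN1A depends on the scaling.

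GADD45A and GADD45B encode small stress-induced proteins that bind cell cycle regulators and switch on the kinases upstream of p38 and JNK. GADD45A read 9.30, 9.41 and 9.37 in shControl and 9.30, 9.20 and 9.26 in shTP63. Its lowest shControl array and its highest shTP63 array were equal to 2 decimals. The difference of -0.11 (SE 0.049, 95% interval -0.22 to 0.00) did not pass (limma adjusted p = 0.105).

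GADD45B read 9.20, 9.12 and 9.25 in shControl and 9.31, 9.32 and 9.42 in shTP63, with every shTP63 array above every shControl array. It rose by 0.16 (SE 0.052, limma adjusted p = 0.0390), or 1.11-fold. The call was lost without any 1 of shControl replicates 1 and 2 and shTP63 replicates 2 and 3 (adjusted p = 0.0721, 0.142, 0.0592 and 0.111), and on arrays centred at their medians, where the difference was 0.048 (adjusted p = 0.467). The third gene of this family, GADD45G, missed the threshold with a difference of -0.091 (SE 0.050, limma adjusted p = 0.183).

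MDM2, the feedback gene of the loop, and TP53INP1 both fell. MDM2 encodes the ubiquitin ligase that limits p53. It read 10.62, 10.75 and 10.70 in shControl and 10.32, 10.38 and 10.31 in shTP63, again with no overlap. The gene fell by 0.36 (SE 0.049, limma adjusted p = 0.000386), or 1.28-fold. TP53INP1 encodes a stress-induced nuclear protein that promotes the death-linked phosphorylation of p53 and also takes part in autophagy. Its values were 9.64, 9.65 and 9.66 in shControl and 9.00, 8.90 and 8.85 in shTP63. The shControl arrays were nearly equal, while the shTP63 arrays were low and more spread. It fell by 0.73 (SE 0.049, limma adjusted p = 9.53e-06), or 1.66-fold, which was the largest difference among the 10 genes, and 186 genes of the array fell further. Its relative TP53INP2, an autophagy gene, fell by 0.25 (SE 0.045, limma adjusted p = 0.00199).

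Among the death genes of the 10, BBC3 and BAX did not pass the test. BBC3 encodes PUMA, which releases BAX and its relatives from their inhibitors. It read 8.28, 8.21 and 8.23 in shControl and 8.28, 8.39 and 8.27 in shTP63, with overlapping groups. The difference of 0.073 (SE 0.049, 95% interval -0.04 to 0.18) did not pass (limma adjusted p = 0.277), and it turned to -0.0067 and -0.035 under 2 of the 4 other scalings. BAX encodes a protein that forms pores in the outer mitochondrial membrane. It read 9.92, 9.86 and 9.90 in shControl and 9.98, 9.95 and 9.95 in shTP63, slightly higher on all 3 shTP63 arrays. Its difference of 0.067 (SE 0.042, 95% interval -0.03 to 0.16) did not pass (limma adjusted p = 0.241). Both scalings based on named probe sets alone gave a call, cyclic loess at 0.17 (adjusted p = 0.00935) and quantile normalization at 0.14 (adjusted p = 0.0257), while centring arrays at their medians turned the difference to -0.040.

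TP53I3 encodes a quinone oxidoreductase linked to oxidative stress and death. Its values were 8.60, 8.47 and 8.61 in shControl and 8.32, 8.37 and 8.42 in shTP63. Groups did not overlap, but the lowest shControl array lay near the highest shTP63 array. The gene fell by 0.19 (SE 0.053, limma adjusted p = 0.0192), or 1.14-fold. Leaving out shControl replicate 1 or 3 or shTP63 replicate 1 or 2 ended this call (adjusted p = 0.0630, 0.0744, 0.0613 and 0.0504).

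PERP encodes a membrane protein that promotes death when p53 is active and that holds desmosomes together in stratified epithelia, where it is known as a p63 target. It read 12.26 on all 3 shControl arrays and 12.32, 12.32 and 12.31 on the shTP63 arrays. This was the tightest of the 10 genes, with an SD of 0.00366 in shControl and 0.00278 in shTP63 (n = 3 each). The difference of 0.056 (SE 0.039, 95% interval -0.03 to 0.15) did not pass limma's moderated test, which widens very small spreads towards those of other genes (adjusted p = 0.300). It became 0.11 after 2 other scalings, where it passed at adjusted p of 0.0470 and 0.0491, and -0.051 on arrays centred at their medians.

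**Figure D2:**
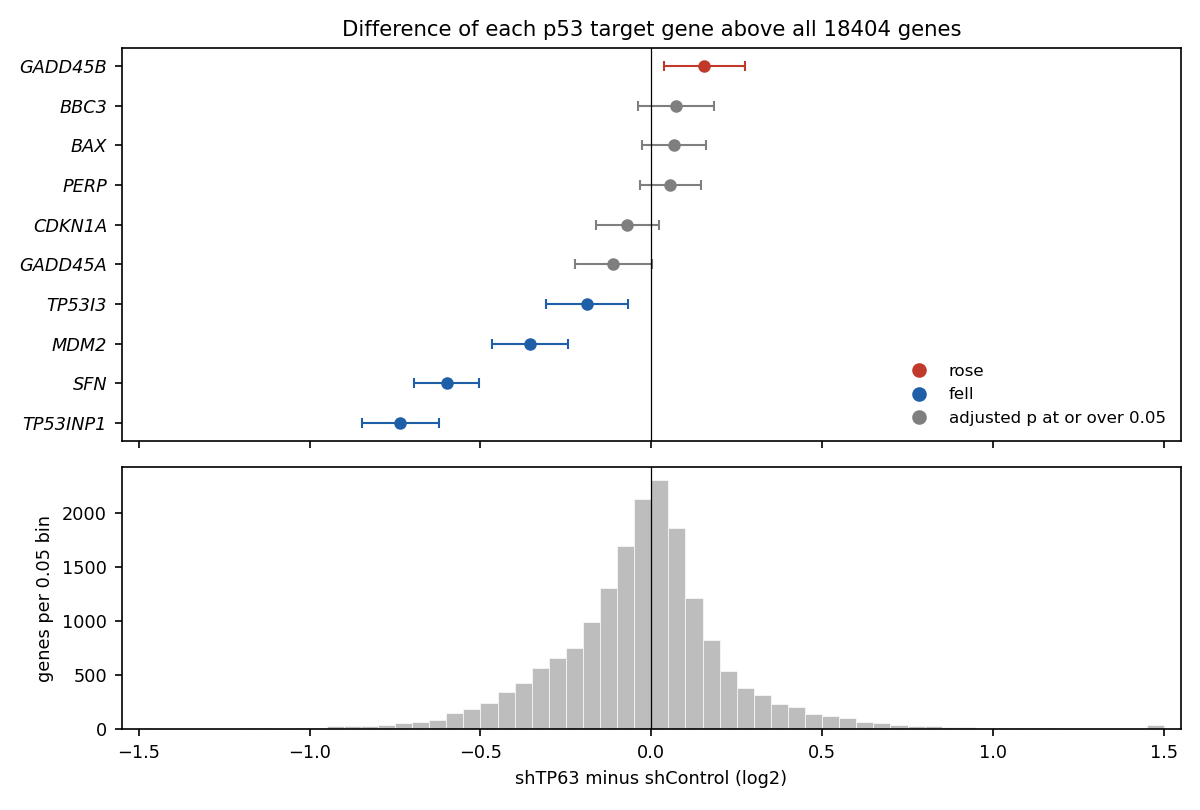
Upper panel: difference of each of the 10 genes (x axis, log2, shTP63 minus shControl) with its 95% interval from limma. Lower panel: number of genes in bins of 0.05 for all 18404 genes, with those past 1.5 placed in the end bins. TP53INP1 (-0.73) and SFN (-0.60) lie in the lower tail, and the other 8 genes within the bulk.

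Because dim and bright genes moved differently on these arrays, the 10 genes were also read against genes of similar brightness. Genes were split by mean level into 5 groups of equal size. In the brightest group, which held SFN, PERP and MDM2, 44.0% of genes fell and 25.3% rose, and the median difference was -0.10. In the next group, which held CDKN1A, TP53INP1, GADD45A, GADD45B and BAX, 43.0% fell and 18.5% rose, also with a median of -0.10. BBC3 and TP53I3 lay in the middle group, where 25.4% fell and 18.0% rose, with a median within 0.001 of 0. Against these medians SFN, TP53INP1 and MDM2 were still lower, and so was TP53I3 (-0.19). The small negative differences of CDKN1A and GADD45A were close to those of the genes around them. GADD45B (0.16), BAX (0.067), PERP (0.056) and BBC3 (0.073) lay above the medians of their groups.

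**Figure D3:**
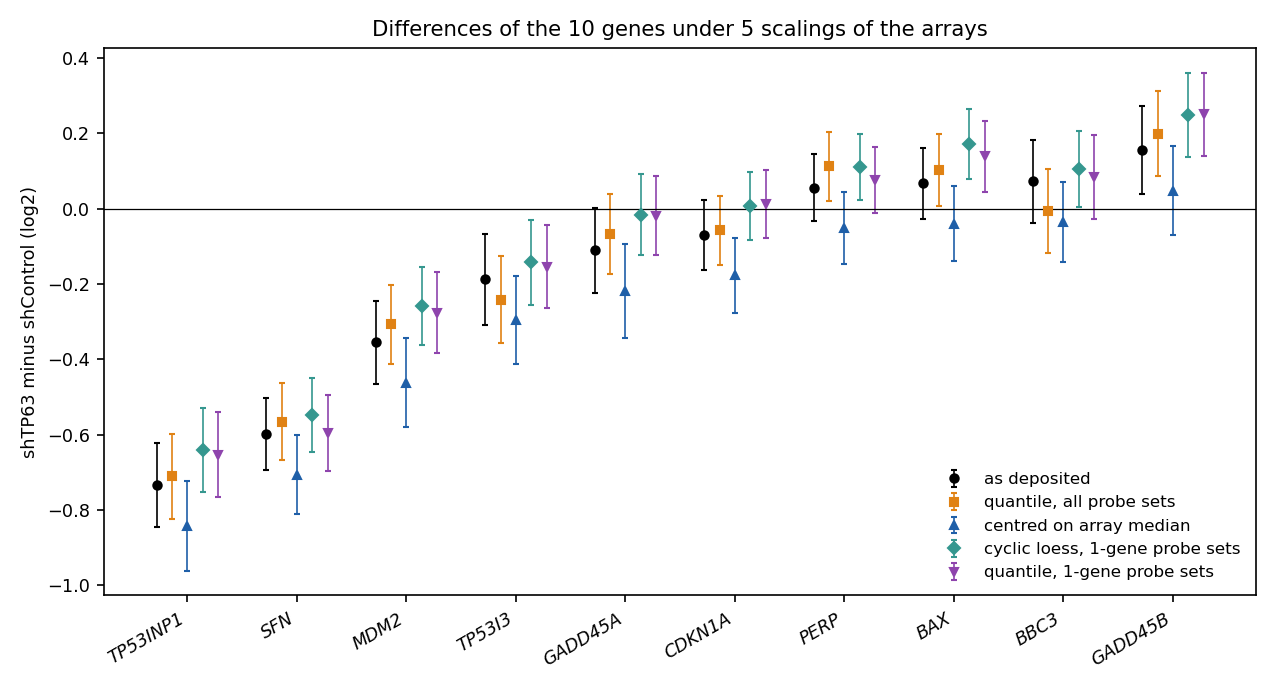
Difference of each of the 10 genes (y axis, log2, shTP63 minus shControl) with its 95% interval from limma, for the deposited values and 4 other scalings of the arrays. The differences of TP53INP1, SFN, MDM2, TP53I3 and GADD45A are below 0 under all 5 and that of GADD45B is above 0. Those of CDKN1A, PERP, BBC3 and BAX lie on both sides of 0.

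The falls of TP53INP1, SFN and MDM2 passed in each of 17 alternatives, with differences from -0.84 to -0.64, from -0.71 to -0.55 and from -0.46 to -0.26. Ratios of genes on the same array do not depend on the centring of that array, and 4 were taken, chosen after their values were seen. MDM4 encodes the partner of MDM2 that also restrains p53. The log2 ratio of MDM2 to MDM4 changed by -0.88 (SE 0.035), and the ratio on each shTP63 array was lower by 0.93, 0.81 and 0.88 than the shControl mean. SFN relative to PERP changed by -0.65 (SE 0.023), TP53INP1 relative to TP53INP2 by -0.49 (SE 0.071) and GADD45A relative to GADD45B by -0.27 (SE 0.075). Since the pairs were picked with their values known, these ratios are a description and carry no test.

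Other p53 target genes were followed in 3 lists by role, of which 52 of 57 genes were measured. Together 23 fell, 12 rose and 17 did not pass, and their median was -0.017. These lists were chosen with earlier results of these data known, so the counts are a description and carry no test. The shares of all genes set beside each list, here and below, are not matched for brightness, and brighter groups held more called genes. Of 18 arrest and growth control targets, 12 fell and 3 rose, beside 25.1% and 16.4% of all genes, with a median of -0.26. Both counts were the same under the 4 other scalings. GPNMB, a melanosomal glycoprotein gene, fell by 0.63 (SE 0.043), ZMAT3, an RNA-binding growth suppressor, by 0.57 (SE 0.050) and the ribosomal protein relative RPS27L by 0.48 (SE 0.058). The rises were those of SUSD6 (0.40, SE 0.040), the EGF receptor ligand TGFA (0.40, SE 0.052) and the polo-like kinase PLK2 (0.28, SE 0.054). Adjusted p in limma ran from 1.07e-05 to 0.00260 over these 6 genes.

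Of 17 death and autophagy targets, 7 rose and 2 fell, beside 16.4% and 25.1% of all genes, and the median was 0.12. The receptor gene TNFRSF10B, which encodes the TRAIL receptor DR5, read 9.43, 9.42 and 9.47 in shControl and 10.29, 10.34 and 10.39 in shTP63. It rose by 0.90 (SE 0.045, limma adjusted p = 2.12e-06), or 1.87-fold, the largest difference in any direction among the target genes measured here. FAS, the receptor of another death ligand, rose by 0.50 (SE 0.047, limma adjusted p = 4.84e-05). Among the other TRAIL receptors, named after their values were seen, TNFRSF10A rose by 0.18 (SE 0.043, limma adjusted p = 0.00766) and the decoy receptor gene TNFRSF10D missed the threshold at 0.15 (SE 0.058, limma adjusted p = 0.0597). IGFBP3, an IGF-binding protein, rose by 0.83 (SE 0.054). The falls were those of PHLDA3, an AKT inhibitor gene that fell by 0.53 (SE 0.048), and of the survival gene BCL2L1, which fell by 0.23 (SE 0.040). With arrays centred at their medians the list held 5 rises and 3 falls and its median became 0.015, and cyclic loess gave 10 rises and 2 falls.

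Of 17 DNA repair and metabolism targets, 9 fell and 2 rose, beside 25.1% and 16.4% of all genes, and the median was -0.16. That median was -0.061 with cyclic loess and -0.26 on arrays centred at their medians. RRM2B, a ribonucleotide reductase subunit that supplies nucleotides for repair, fell by 0.52 (SE 0.067) and the mitochondrial dehydrogenase gene ALDH4A1 by 0.51 (SE 0.046). GPX1, a glutathione peroxidase, fell by 0.80 (SE 0.062) at its brighter probe set, but its other probe set differed by 0.13 and did not pass, so its direction is uncertain. The rises were those of SLC12A4, a potassium-chloride cotransporter gene (0.59, SE 0.047), and of CYFIP2 (0.22, SE 0.045). CYFIP2 lay under the background level in both groups, which leaves the size of its change uncertain, and its call was lost under 2 scalings (adjusted p = 0.0586 and 0.0612). The other 4 genes named from this list had limma adjusted p from 1.84e-05 to 0.000274.

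**Figure D4:**
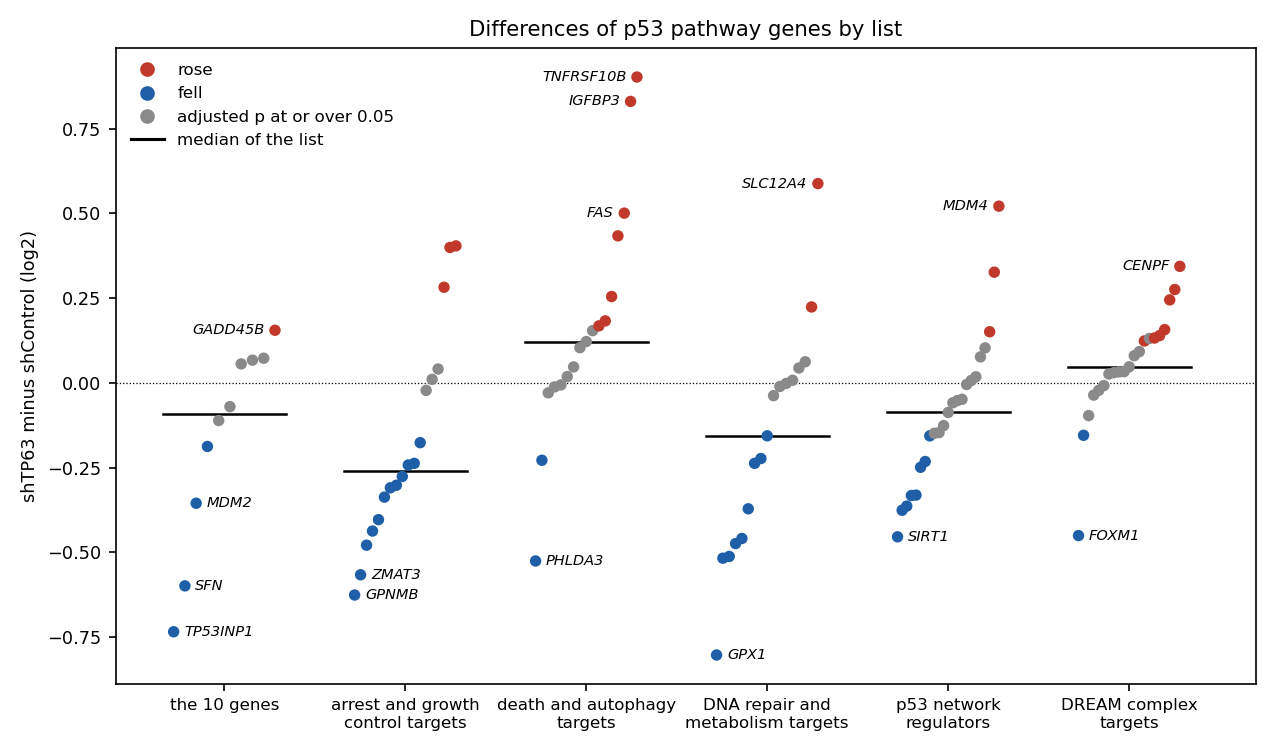
Difference of each gene (y axis, log2, shTP63 minus shControl) in the 10 genes and in 5 lists of p53 pathway genes, where each point is a gene, sorted within its list, and the black line is the list's median. The arrest list has a median of -0.26 and the death list of 0.12. The lists were chosen with earlier results of these data known.

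Genes that act on p53 were mixed. Of 23 regulators measured, 8 fell and 3 rose, beside 25.1% and 16.4% of all genes, with a median of -0.087 that became -0.025 with cyclic loess and -0.19 on arrays centred at their medians. MDM4 rose by 0.52 (SE 0.047, limma adjusted p = 3.94e-05), from 8.93, 9.03 and 9.00 in shControl to 9.55, 9.49 and 9.48 in shTP63, opposite in direction to MDM2. The other rises were those of HIPK2, a kinase that phosphorylates p53 (0.33, SE 0.056), and of TP53BP2, which encodes a p53-binding cofactor (0.15, SE 0.044). The TP53BP2 call was lost without shControl replicate 1 or 3 or shTP63 replicate 2 (adjusted p = 0.0686, 0.0806 and 0.0774), and on arrays centred at their medians (0.044, adjusted p = 0.461). The deacetylase gene SIRT1 fell by 0.45 (SE 0.042), the bromodomain gene BRD7 by 0.38 (SE 0.067) and the acetyltransferase gene KAT5 by 0.36 (SE 0.056). TP73, which encodes the family member p73, missed the threshold at -0.15 (SE 0.057, limma adjusted p = 0.0699) but passed without shTP63 replicate 2 (adjusted p = 0.0324) and under 3 of the 4 other scalings (adjusted p = 0.00667, 0.00306 and 0.0498). With arrays centred on their median 14 regulators fell and 2 rose.

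Over probe sets the correlation r was 0.996 to 0.998 within a group and 0.988 to 0.991 between groups. All 10 keratinocyte markers measured lay above background in both groups, and 4 fell and 2 rose. The largest changes each way were those of KRT5, which fell by 0.50 (SE 0.046), and LAMB3, which rose by 0.33 (SE 0.042). Of all genes 25.1% fell and 16.4% rose, to be set beside each marker list here. Of 12 fibroblast markers 3 rose and 1 fell, and melanocyte markers gave 1 rise and 1 fall of 7. The 11 immune and endothelial markers gave 2 rises, of CD68 (0.75, SE 0.056) and CD14 (0.70, SE 0.064), and 1 fall. CD68 and CD14 lay above background in both groups and count in the summed level of their list. The summed log2 level of the fibroblast markers was 11.851 to 11.881 in shControl and 12.001 to 12.050 in shTP63, with 5 of 12 under background in both groups, and that of the immune and endothelial markers 10.80 to 10.89 and 11.14 to 11.22, with 8 of 11 under background in both. The melanocyte markers summed to 9.75 to 9.77 in shControl and 9.75 to 9.83 in shTP63, with 4 of 7 under background in both. The part of these markers in the results above was not tested. In such bulk samples fewer cells that express a gene and less RNA per cell cannot be told apart.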

How the data were processed

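Expression was measured on 6 arrays read in 1 colour. Per the submitters' processing notes, the authors' values were made with RMA in R 2.15.1, which corrects background, normalizes arrays to each other and summarises each probe set. The deposited table held linear intensities (array medians 173 to 190), which were turned to log2 here. The array's genome build is not given in the sources used here. Of 32321 probe sets, 19158 were paired with 1 gene, 1388 with several and 11775 were unlisted, and the platform annotation supplied the names. For each gene the probe set with the highest mean was used. Groups came from the sample titles and the test was limma's lmFit and eBayes (version 3.58.1, R 4.3.3), two-sided and without covariates. P-values were adjusted by Benjamini-Hochberg over 18404 genes, with a threshold of 0.05. The fit was tested on simulated data. Arrays give no counts, so their number limits the precision, with a median within-group SD of 0.065. Deviations of same-numbered samples from their group means had correlations of -0.15, -0.04 and 0.13. Not every one was over 0.1, so the main test did not use the numbers as pairs. These correlations cannot show whether the samples were paired. The members and gene lists were chosen with earlier results of these data known. Named in the text are all 10 members, TP73 and MDM4, family relatives set beside a member and at most 2 genes of a marker list. Up to 3 of the largest rises and falls among called genes of each other list are also named. TNFRSF10A and TNFRSF10D were added after their values were seen. BTG2, TNFRSF10C, GLS2, FDXR, KRT6A, KRT17 and DCT were listed but not analysed here, and some other listed items are not reported here. Alternatives were other scalings, probe set choices, filters, priors and tests, the replicate number as a block, and each sample left out in turn.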

Additional observations from a re-analysis of the deposited data

How the results depend on the processing

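TP53INP1, SFN and MDM2 kept direction and call under all alternatives run. For the other 7 genes a call or a direction moved, and the cause was not tested beyond what the setting itself changes. Centring the arrays at their medians took the median over all genes to -0.12 from -0.013, and all genes gave 1782 rises and 7932 falls, against 3015 and 4619. Among the 10 genes 0 then rose, CDKN1A (-0.18) and GADD45A (-0.22) passed, GADD45B (0.048) was lost, and BBC3 (-0.035), BAX (-0.040) and PERP (-0.051) turned. Under this setting 1 repair target rose, 14 regulators and 11 relatives fell, and 2 DREAM targets rose and 4 fell. After cyclic loess all genes gave 3704 rises and 3663 falls. Of the 10 genes 3 then rose, CDKN1A turned to 0.0074, and BAX (0.17) and PERP (0.11) passed. Under cyclic loess 5 regulators, 2 relatives and 12 DREAM targets rose and 1 DREAM target fell. Quantile normalization over probe sets with 1 gene gave 3497 rises and 3913 falls of all genes. Among the 10 genes it gave 2 rises, with CDKN1A at 0.012 and BAX passing at 0.14, and 5 regulators and 2 relatives rose. Over all probe sets quantile normalization gave 2600 rises and 5774 falls of all genes. Among the 10 genes it gave 2 rises, BBC3 at -0.0067 and PERP passing at 0.11. With it 1 repair target and 2 relatives rose and 7 relatives fell. Across all alternatives run, rises of all genes numbered 1782 to 3704 and falls 3468 to 7932. Without the dimmest 40% of genes GADD45A passed (-0.11), 1 repair target and 2 relatives rose and 9 relatives fell. The trended prior gave 2 rises and 9 falls of relatives and array weights 2 and 7. The unmoderated test gave 2 rises of relatives, passed CDKN1A (-0.070) and PERP (0.056), and lost GADD45B (0.16) and TP53I3 (-0.19). With all probe sets tested GADD45B (0.16) was lost, so 0 of the 10 genes rose, and 4 DREAM targets rose. At an adjusted p of 0.01 GADD45B (0.16) and TP53I3 (-0.19) were lost, 0 of the 10 genes rose, and 2 DREAM targets rose and 1 fell. With the replicate number as a block 3 DREAM targets rose and MKI67 was lost (adjusted p = 0.0545), and the call of no member changed. With 1 sample left out, rises among the 10 genes numbered 0 to 1, and DREAM rises 2 to 7 and falls 1 to 2. GADD45B then ranged from 0.12 to 0.18 and TP53I3 from -0.23 to -0.16. Over 31 of the other named genes and 18 alternatives, 533 results were unaltered in call, 19 were lost, 5 gained and 0 turned. That count leaves out PMAIP1, CDKN1B, CDKN1C, TNFRSF10A, TNFRSF10D, GADD45G, YWHAB and the cell type markers, and some of these lay close to the threshold. Dim probe sets compress a true change. All 10 genes lay above background, but whether their changes were compressed was not measured.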

Other observations

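The DREAM complex silences cell cycle genes downstream of p21, and 21 of its textbook target genes were measured. Of these 7 rose and 2 fell, and their median was 0.047 (shTP63 minus shControl, log2), beside 16.4% and 25.1% of all genes. Most of them lay in the brightest of the 5 groups by mean level, where 25.3% of genes rose and 44.0% fell. CENPF, a kinetochore gene, rose by 0.34 (SE 0.044, limma adjusted p = 0.000262), the mitotic kinase AURKA by 0.28 (SE 0.048, limma adjusted p = 0.00146) and the proliferation marker MKI67 by 0.24 (SE 0.077, limma adjusted p = 0.0307). FOXM1, a transcription factor of mitotic genes, fell by 0.45 (SE 0.044, limma adjusted p = 5.88e-05) and the mitotic kinesin KIF20A by 0.15 (SE 0.045, limma adjusted p = 0.0224). The MKI67 call was lost without shControl replicate 1 or shTP63 replicate 1 or 2 (adjusted p = 0.0827, 0.0926 and 0.0986), and the KIF20A call without shControl replicate 2 or shTP63 replicate 3 (adjusted p = 0.0855 and 0.0637). Centring arrays at their medians ended the MKI67 call (adjusted p = 0.173) and cyclic loess the KIF20A call (adjusted p = 0.173). The count of rises was 2 to 7 with 1 sample left out, and it was 2 without shTP63 replicate 2 and 3 without any 1 of the 3 shControl samples. Centring arrays at their medians gave 2 rises and 4 falls and cyclic loess 12 and 1, so the balance of this list depends on the scaling.

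Relatives of the 10 genes were measured as a list of 14, of which 4 fell and 1 rose, MDM4, beside 25.1% and 16.4% of all genes. Of the 6 relatives of SFN in the same protein family, 3 fell and 3 did not pass, with a median difference of -0.15. That is too few genes to set against the 25.1% of all genes that fell, or the 44.0% in the brightest group, which held them. YWHAG fell by 0.29 (SE 0.047, limma adjusted p = 0.000971), YWHAZ by 0.23 (SE 0.047, limma adjusted p = 0.00377) and YWHAB, named after its value was seen, by 0.16 (SE 0.042, limma adjusted p = 0.0131), beside the fall of 0.60 for SFN. The p21 relatives CDKN1B and CDKN1C missed the threshold at -0.12 (SE 0.045, limma adjusted p = 0.0592) and 0.036 (SE 0.050, limma adjusted p = 0.611). PMAIP1, which encodes the death-promoting protein NOXA, missed it at 0.12 (SE 0.044, limma adjusted p = 0.0518).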
